A study of Mus musculus with 12 samples.

Results

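The genes described here encode the subunits of oxidative phosphorylation, measured by RNA-seq in mouse lumbar (L4-L6) dorsal root ganglia (DRG), which hold the cell bodies of peripheral sensory neurons together with their glia. Members were taken by gene name, as the Nduf (a, b, c, s and v), Uqcr, Cox4 to Cox8, Atp5 and Sdh genes of the nucleus and the mt-Nd, mt-Co, mt-Cytb and mt-Atp genes of the mitochondrial genome, and names with "-ps" or "os" were left out. This gave 98 of the 44345 gene names in the count table, of which 85 were nuclear and 13 mitochondrial. C57BL/6 mice of 5 to 8 weeks lived for 10 days in standard housing (SH) or in an enriched environment (EE, larger cages and groups with a running wheel and added nesting material). They then had a complete transection of the sciatic nerve (sciatic nerve axotomy, SNA) or a sham operation that exposed the nerve, and DRG were collected 24 hours later. Housing and surgery together made 4 groups of 3 samples (SH Sham, SH SNA, EE Sham, EE SNA). The DRG of both sides of 2 mice were pooled for a sample, and thus 6 mice stood behind a group. The study describes data for enriched housing alone as published earlier, and the labels name no batch, so a batch that set EE Sham apart cannot be told apart from housing. Such a batch would also enter EE SNA against EE Sham and the interaction of housing and surgery, which use the same samples.

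Oxidative phosphorylation moves electrons from NADH and succinate to oxygen through complexes I to IV of the inner mitochondrial membrane, and complex V uses the proton gradient they build to make ATP. Complex I (NADH dehydrogenase) holds most Nduf and mt-Nd proteins, complex II (succinate dehydrogenase) is built from nuclear Sdh genes alone, complex III (cytochrome bc1) holds the Uqcr proteins and cytochrome b, complex IV (cytochrome c oxidase) the Cox and mt-Co proteins, and complex V (ATP synthase) the Atp5 and mt-Atp proteins. The nuclear genes each have a promoter of their own, whereas mitochondrial genes are transcribed as long precursors from both strands and then cut apart, so the 2 sets can change separately. Sensory neurons have long axons and a high demand for ATP.

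The nuclear set is known for promoters that share binding words of a few transcription factors, and these words are shown first because the genes for those factors are described with the regulators. Promoter sequence (RefSeq, GRCm38.p6, from 250 bases before to 50 bases after the transcription start) was matched for 69 of the 85 nuclear members, and 5 words were searched on both strands. The NRF1 word GCGCNTGCGC stood in 17 members (24.6%), against 5.19% of all 27025 genes with a promoter in the table. The word CCGGAAG of the ETS factor GABP stood in 16 members (23.2%, against 9.93%), and the word AAGGTCA of the estrogen-related receptors (ERR) in 8 (11.6%, against 5.38%). The YY1 word AAGATGGCG stood in 8 members (11.6%, against 1.64%), and the CREB word TGACGTCA in 4 (5.8%, against 2.03%). None of the words contains another, although the Atp5j stretch holds the GABP word too, in lower case. For each word, the stretch around a match is given, read on the gene's strand, with the word in capitals. The member shown has the highest transcript level among those that hold the word before the RefSeq start site. In GENCODE M21 the genes Cox6b1, Atp5j and Uqcrfs1 start upstream of the word shown, so there it lies inside the gene. The stretches are Cox6a1 chr5:115349076-115349155, Cox6b1 chr7:30626115-30626177, Atp5l chr9:44920743-44920790, Atp5j chr16:84835021-84835099 and Uqcrfs1 chr13:30545317-30545380, all on the minus strand.
Cox6a1, NRF1 word: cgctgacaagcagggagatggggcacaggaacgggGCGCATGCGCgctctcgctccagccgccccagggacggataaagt
Cox6b1, GABP word, reverse strand: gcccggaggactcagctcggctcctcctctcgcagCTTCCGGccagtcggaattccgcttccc
Atp5l, ERR word, reverse strand: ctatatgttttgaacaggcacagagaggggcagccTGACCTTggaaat
Atp5j, YY1 word: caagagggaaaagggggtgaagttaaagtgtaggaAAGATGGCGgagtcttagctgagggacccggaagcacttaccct
Uqcrfs1, CREB word: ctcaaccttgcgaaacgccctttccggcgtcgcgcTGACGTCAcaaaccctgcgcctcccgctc

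A match to these letters is a description of the sequence and shows no binding. The genes that hold the words were spread over the complexes. The NRF1 word was found in Sdha, Sdhd, Uqcrc1, Cox6a1, Atp5c1 and 12 others, and Sdhd and Atp5k each held the NRF1, GABP and ERR words together. The ERR word was found in Atp5l, Atp5e, Atp5g3, Atp5k, Ndufb2, Ndufb4, Ndufs5 and Sdhd.

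Each sample had 11343579 to 22871460 reads counted on genes. Sensory neuron markers summed to 22060 to 26298 CPM (counts scaled to library size and composition) in all 12 samples, as a DRG should have. The response to axotomy was present, since all 6 injury-response genes tested were higher in SH SNA than in SH Sham and in EE SNA than in either sham group (edgeR quasi-likelihood test, Benjamini-Hochberg adjusted P under 0.05 over 16238 genes). The injury-induced factor Atf3 was at 110, 138 and 110 CPM in SH Sham, 549, 502 and 499 in SH SNA, 136, 136 and 168 in EE Sham, and 480, 454 and 516 in EE SNA. Some libraries stood apart by markers of other cell types. SH SNA replicate 2 held 1439 CPM of skeletal muscle markers (4.93 to 252 in the other 11), EE SNA replicate 3 held 726 CPM of neutrophil markers (70.2 to 310) and the highest sum of red blood cell markers, and EE SNA replicate 1 held 62.7 CPM of adipocyte markers (11.6 to 36.3).

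Mitochondrially encoded genes took far more reads than nuclear ones. The 13 mitochondrial members held 4.94% to 6.89% of the counted reads of a sample and the 85 nuclear members 1.01% to 1.18%. The mitochondrial share was 5.65% ± 0.734 (SD, n = 3) in SH Sham, 5.83% ± 0.370 in SH SNA, 6.13% ± 0.523 in EE Sham and 6.26% ± 0.548 in EE SNA. The nuclear share was 1.12% ± 0.0181 in SH Sham, 1.09% ± 0.0200 in SH SNA, 1.10% ± 0.0884 in EE Sham and 1.12% ± 0.0484 in EE SNA. The samples of all 4 groups overlapped in both shares.

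**Figure D1:**
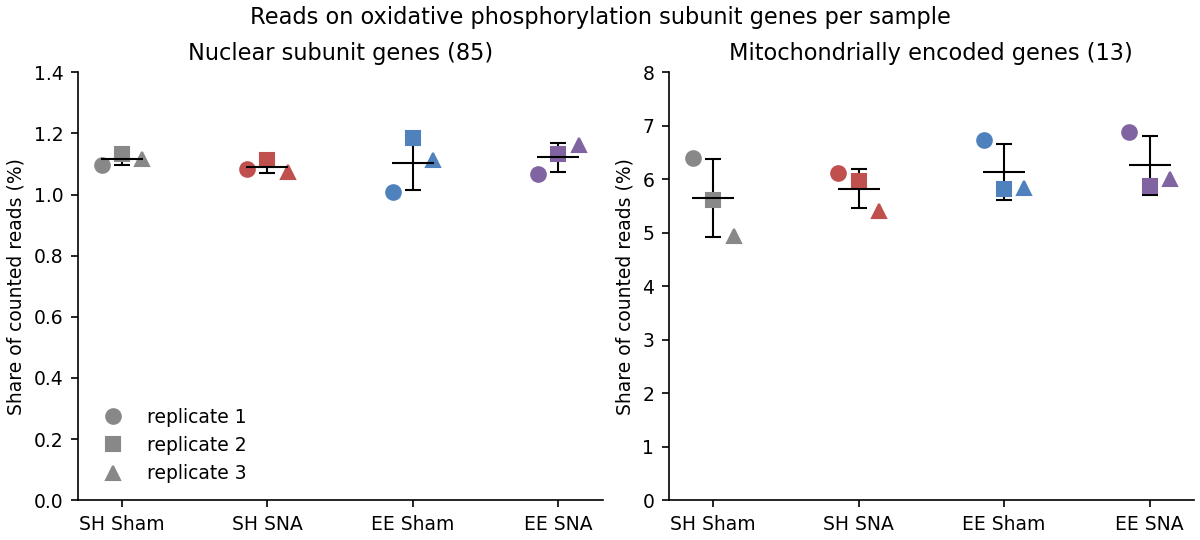
Share of counted reads (%, y axes) on the 85 nuclear and the 13 mitochondrially encoded subunit genes in each of 12 samples, by group; circles, squares and triangles are replicates 1, 2 and 3, and bars are mean ± SD (n = 3). Replicate 1 holds the highest mitochondrial share in every group, from 6.11% to 6.89%.

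Per length of transcript, mitochondrial genes again stood far above nuclear ones. On the FPKM scale (fragments scaled to transcript length and library size), the median over the 81 nuclear members that passed the filter on low counts was 76.0, against 5.23 over all 16238 genes tested. The median of the 11 mitochondrial members tested was 3685 FPKM. Complex IV held the extremes: mt-Co1, mt-Co2 and mt-Co3, which form the catalytic core of cytochrome c oxidase, averaged 12005, 11587 and 10283 FPKM, and their ranges over the 12 samples overlapped (10126 to 13779, 9500 to 13221 and 8279 to 11674). Cytochrome b of complex III (mt-Cytb) followed at 5976 FPKM, below the range of all 3. The complex I core genes came next, from mt-Nd1 at 4307 and mt-Nd4 at 3685 FPKM through mt-Nd2 at 2884, mt-Nd3 at 2358 and mt-Nd5 at 2173 to mt-Nd6 at 1907, and neighbours in this order overlapped in their ranges. mt-Nd6 is the one read from the other strand of the mitochondrial genome.

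Among the nuclear genes, Ndufa4 was highest at 832 FPKM (735 to 945 over the 12 samples). The gene is named for complex I, although its protein is known as a subunit of cytochrome c oxidase. Cox6b1 (473 FPKM), Cox8a (444) and Cox6a1 (368), which encode small subunits around the complex IV core, followed. In complex V, Atp5l, a subunit of the membrane part, stood at 294 FPKM, Atp5b, the catalytic beta subunit, at 267, and Atp5a1, the alpha subunit, at 217. In complex III, the hinge protein gene Uqcrh was at 159, Uqcr10 at 133 and the core protein gene Uqcrc1 at 123. In complex I, Ndufb9 at 164 and Ndufa6 at 150 followed Ndufa4, and the median over the 37 Nduf genes was 63.0. Among the 4 complex II genes, Sdhd, a membrane anchor, was at 88.9, the flavoprotein Sdha at 74.8, the iron-sulfur Sdhb at 60.2 and the other anchor Sdhc at 23.9 FPKM. The ranges of Sdhd, Sdha, Sdhb and Sdhc over the 12 samples did not overlap (83.8 to 98.7, 67.6 to 79.3, 57.2 to 64.3 and 21.95 to 25.8).

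**Figure D2:**
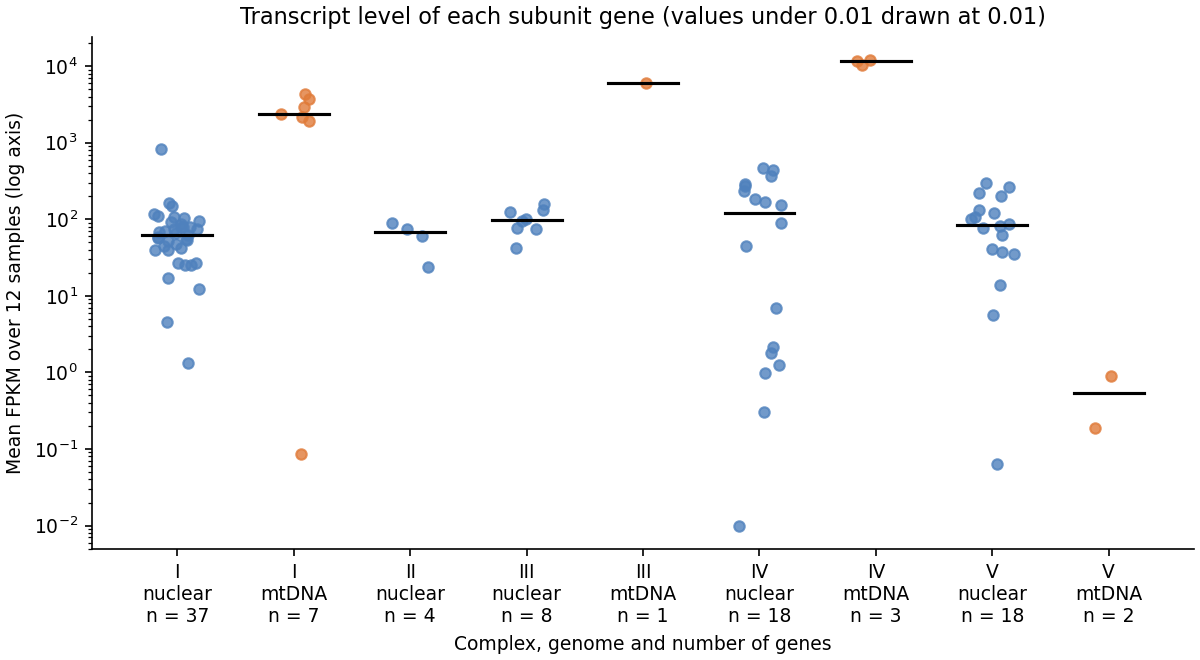
Mean FPKM over 12 samples (log y axis) of each subunit gene, by complex and genome; points are genes and lines are medians. The mitochondrially encoded genes lie between 1907 and 12005 FPKM except mt-Nd4l, mt-Atp6 and mt-Atp8, which lie under 1.

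Several subunits have tissue-specific isoforms, and in DRG a single isoform carried nearly all transcripts of most families. Cox4i1 was at 184 FPKM and its partner Cox4i2 at 0.988, Cox6a1 at 368 and the heart and muscle form Cox6a2 at 1.81, Cox6b1 at 473 and the testis form Cox6b2 at 1.25. Cox8a was at 444 FPKM and the muscle form Cox8b at 2.18, while Cox8c had no read in any sample. Cox7a2 was at 237 and Cox7a2l, a supercomplex assembly factor, at 152, against 7.01 for the heart and muscle form Cox7a1, and Cox7b was at 168 against 0.301 for Cox7b2. Ndufa4l2, a paralog induced by low oxygen, stood at 1.33 FPKM beside Ndufa4. The exception was the c ring of ATP synthase, where 3 genes encode the same mature protein: Atp5g3 was at 132 FPKM (113 to 141 over the samples), Atp5g2 at 62.2 (57.0 to 67.7) and Atp5g1 at 34.97 (32.5 to 38.3). Of the windows of 100 bases in the transcripts of Atp5g2, 34.7% occur also in another annotated gene, mainly Gm10175, so its level is uncertain.

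The filter kept 92 of the 98 members, 81 nuclear and 11 mitochondrial. The nuclear genes left out were Atp5l2 (3 reads in all, annotated as a pseudogene in GENCODE M21), Cox7b2 (27), Cox8b (124) and Cox8c (0). The mitochondrial genes left out were mt-Atp8 with 6 reads and mt-Nd4l with 4 reads over all samples, and mt-Atp6 passed with 103. These 3 lie beside genes with far more reads. On GRCm38, mt-Atp8 spans chrM:7766-7969 and mt-Atp6 chrM:7927-8607, followed by mt-Co3 at chrM:8607-9390, and mt-Nd4l spans chrM:9877-10173 before mt-Nd4 at chrM:10167-11544, all on the plus strand. The ATP synthase genes share 43 bases, which are shown because a fragment inside them belongs to both genes, with the start codon of mt-Atp6 in the first 3 positions (chrM:7927-7969).
mt-Atp8 end and mt-Atp6 start: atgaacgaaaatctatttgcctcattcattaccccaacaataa

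Copies of mitochondrial sequence also lie in the nuclear genome. In GENCODE M21, 99.5% of the windows of 100 bases of mt-Atp6 occur exactly in Gm10925 and 98.5% of those of mt-Nd4l in Gm10222. The windows of mt-Co3 (99.9%), mt-Co2 (99.5%), mt-Nd3 (97.6%), mt-Nd4 (60.8%) and mt-Co1 (30.8%) are shared as well, although these genes had 136722 to 3102822 reads over all samples. Reads that aligned to several places made up 8.49% to 9.28% of the reads classified and were not counted on genes. mt-Atp8 shared none of its 105 windows with another annotated gene and had 6 reads. Only annotated transcripts were searched, so a copy outside them would not be seen. The part of shared sequence in the low counts of mt-Atp6, mt-Atp8 and mt-Nd4l was not tested, and the levels of all genes with shared windows are uncertain. Of the 85 nuclear members, 54 share no such window and 11 share at least 10%, with Atp5o at 27.9% and Ndufa13 and Ndufb6 at 24.0% the next after Atp5g2.

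The comparison of SH SNA with SH Sham asks how axotomy alone moves the set. After axotomy the transcripts of oxidative phosphorylation hardly moved, while more than 1 in 10 genes changed overall. Of the 92 members tested, 1 passed the test: Atp5sl fell, and 0 rose. Over all genes tested, 6.06% were called higher and 5.17% lower. At an unadjusted P under 0.05, the threshold of the study, 2 members were higher and 4 lower, where 13.4% and 11.8% of all genes were. The nuclear members had a median log2 fold change of -0.03 (81 genes, 30 above 0), the mitochondrial members 0.05 (11 genes, 10 above 0), and all genes 0.0047 (51.0% above 0). Bulk tissue cannot tell fewer cells of a type from less RNA per cell.

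Atp5sl, called Dmac2 in GENCODE M21, lies on chr7:25619414-25625551 (plus strand). In spite of its name, its protein is known for the assembly of complex I rather than as a subunit of ATP synthase. It stood at 17.6, 17.6 and 17.5 CPM in SH Sham and at 13.8, 13.8 and 14.8 in SH SNA. The groups did not overlap. The log2 fold change was -0.31 (SE 0.0893, 95% interval -0.50 to -0.12, edgeR adjusted P = 0.0431), which is 0.806 of the sham level. The call was lost when any 1 of the 6 samples was left out, with edgeR adjusted P values of 0.0560 (without SH SNA replicate 3) to 0.124 (without SH SNA replicate 1), and it stood in 6 of 16 alternative settings. In EE SNA it was at 17.7, 14.6 and 16.04 CPM, with a log2 difference of -0.14 from SH Sham (interval -0.35 to 0.07), and the test of the housing by surgery interaction gave an edgeR adjusted P of 1 (difference 0.12, interval -0.16 to 0.39).

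The abundant genes were measured closely enough to bound any change. Of the 81 nuclear members, 73 had a 95% interval inside a 1.25-fold change in either direction, and 76 inside 1.5-fold. Atp5b stood at 1075, 1154 and 1229 CPM in SH Sham and at 1103, 1157 and 1133 in SH SNA, and its fold change was 0.983 (95% interval 0.892 to 1.08). For Ndufa4 the fold was 1.04 (0.948 to 1.13), for Cox6b1 1.04 (0.967 to 1.12) and for Uqcrh 1.01 (0.936 to 1.08). These are intervals of single genes, without adjustment for the number of genes. The mitochondrial members were less precise, and 8 of 11 had an interval inside 1.25-fold, with mt-Co1 at 1.05 (0.905 to 1.22).

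Of the 4 complex II genes, 2 were lower at the unadjusted threshold. Sdha stood at 296, 301 and 304 CPM in SH Sham and at 263, 288 and 271 in SH SNA. Sdhc stood at 83.9, 81.6 and 81.7 against 73.9, 77.7 and 74.4. In both, and in Sdhd, every SH SNA sample lay below every SH Sham sample, while Sdhb overlapped. The share of all genes without overlap is not given, so this is a description only. Their log2 fold changes were -0.13 (interval -0.25 to -0.01, unadjusted P = 0.0337, edgeR adjusted P = 0.157) and -0.13 (interval -0.24 to -0.01, unadjusted P = 0.0322, adjusted P = 0.152), so neither passed the test over all genes. Sdhd was close (-0.11, interval -0.22 to 0.00), whereas Sdhb was at 0.01 (-0.10 to 0.12). The complex I core subunit Ndufs1, which carries iron-sulfur clusters, was at 188, 180 and 172 CPM in SH Sham and 162, 169 and 163 in SH SNA (log2 fold change -0.13, edgeR adjusted P = 0.170).

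**Figure D3:**
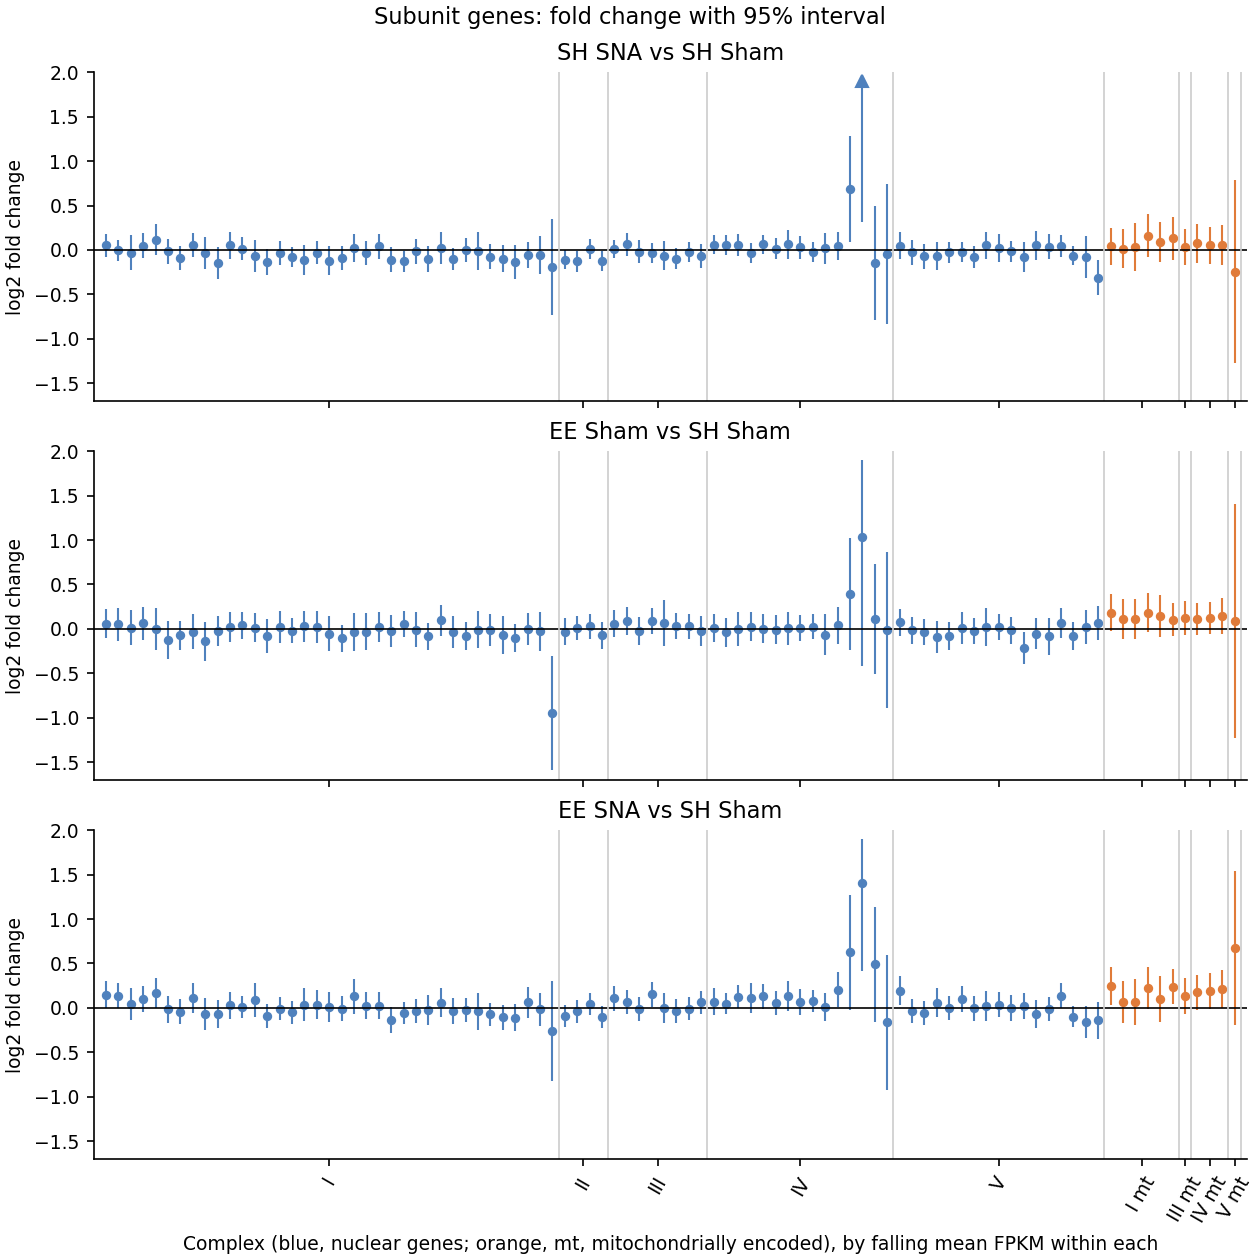
Log2 fold change of each of 92 subunit genes against SH Sham (y axis), with 95% intervals, grouped by complex on the x axis (blue nuclear, orange mitochondrially encoded); the triangle marks Cox6a2 at 2.65, and intervals of Cox6a2 are cut at the top of the axis. Most nuclear genes lie close to 0 in all 3 comparisons, while the mitochondrial genes of complexes I, III and IV lie above 0 in EE Sham and EE SNA with intervals that mostly include 0.

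The 2 members with a higher value at the unadjusted threshold were the muscle forms Cox6a2 and Cox7a1. Cox6a2 had 3, 4 and 11 reads in SH Sham and 5, 85 and 2 in SH SNA, so SH SNA replicate 2 alone set its log2 fold change of 2.65 (SE 1.07, edgeR adjusted P = 0.145). Without that library the value was -0.51, and without SH SNA replicate 3 it was called (3.21, adjusted P = 0.0418). Cox8b, which did not pass the filter, had 2, 3 and 11 reads in SH Sham and 3, 41 and 2 in SH SNA, with the high value in the same library. Cox7a1 was at 1.23, 1.87 and 2.54 CPM in SH Sham and 2.45, 3.72 and 2.87 in SH SNA (log2 fold change 0.69, adjusted P = 0.137). Beside these, the 13 skeletal muscle markers had a median log2 fold change of 2.78 in the same comparison, 12 of them with an unadjusted P under 0.05 and 0 called. Their summed level was 4.93 to 196 CPM in SH Sham and 57.0 to 1439 in SH SNA. Their part in the values of Cox6a2, Cox7a1 and Cox8b was not tested.

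EE Sham against SH Sham asks what housing alone does. In the fit that takes no account of replicate numbers, no member passed the adjusted test, and 0.00616% of all genes did (1 gene). At the unadjusted threshold 0 members were higher (1.4% of all genes) and 2 lower (1.58%), both nuclear. Ndufa4l2 had 26, 26 and 21 reads in SH Sham and 10, 9 and 11 in EE Sham, or 1.53, 1.87 and 1.40 against 0.902, 0.683 and 0.894 CPM. The groups did not overlap, and the log2 fold change was -0.95 (interval -1.59 to -0.31, edgeR unadjusted P = 0.00659, adjusted P = 1). Ndufa4l2 is known in pericytes, and the summed level of the 10 pericyte and smooth muscle markers was 332 to 367 CPM in SH Sham and 348 to 397 in EE Sham. Of these markers 7 lay above 0 and 3 below, the lowest at a log2 fold change of -1.12. At the unadjusted threshold 1 of the markers was lower and 0 were higher. Their part was not tested. Atp5d, the delta subunit of the ATP synthase rotor, was at 140, 165 and 158 CPM in SH Sham and 126, 147 and 125 in EE Sham (log2 fold change -0.22, edgeR adjusted P = 1). The nuclear median was -0.0035 (39 of 81 genes above 0), and 72 of 81 intervals lay inside 1.25-fold. With the replicate number as a block, 3 nuclear members were lower at an unadjusted P under 0.05 (Ndufa4l2, Atp5d and Ndufs5). The share of all genes lower in that fit is not given, so this count is a description only. None of the nuclear members passed the adjusted test in that fit (smallest edgeR adjusted P = 0.356), while 29 of all 16238 genes did.

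The mitochondrial genes lay above 0 together here, although none was called and no test compared them with the nuclear genes. All 11 tested were above 0, with a median log2 fold change of 0.12 and a range of 0.09 to 0.18, where 51.3% of all genes were above 0. The median depended on single libraries: it was 0.04 without SH Sham replicate 3 and 0.05 without EE Sham replicate 1, but 0.22 without SH Sham replicate 1 and 0.18 without EE Sham replicate 2. mt-Co1 was at 20061, 16873 and 15606 CPM in SH Sham and 20897, 17960 and 18151 in EE Sham, and its fold change was 1.08 (interval 0.956 to 1.23). The groups overlapped, because replicate 1 of SH Sham was higher than 2 of the EE Sham samples. mt-Cytb was at 7294, 6558 and 5758 against 8081, 6623 and 6682 CPM (fold 1.09, interval 0.955 to 1.24). The 11 genes are cut from shared precursors and were read in the same libraries, so their agreement in sign is not 11 separate observations. Same-numbered samples of EE Sham and SH Sham deviated together weakly, with correlations of 0.111 to 0.331, against -0.333 to 0.194 for differently numbered ones. With the replicate number as a block, 7 of the 11 mitochondrial genes were higher at an unadjusted P under 0.05 (2.8% of all genes were in the same fit). In that fit 0 of them passed the adjusted test (smallest edgeR adjusted P = 0.369).

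**Figure D4:**
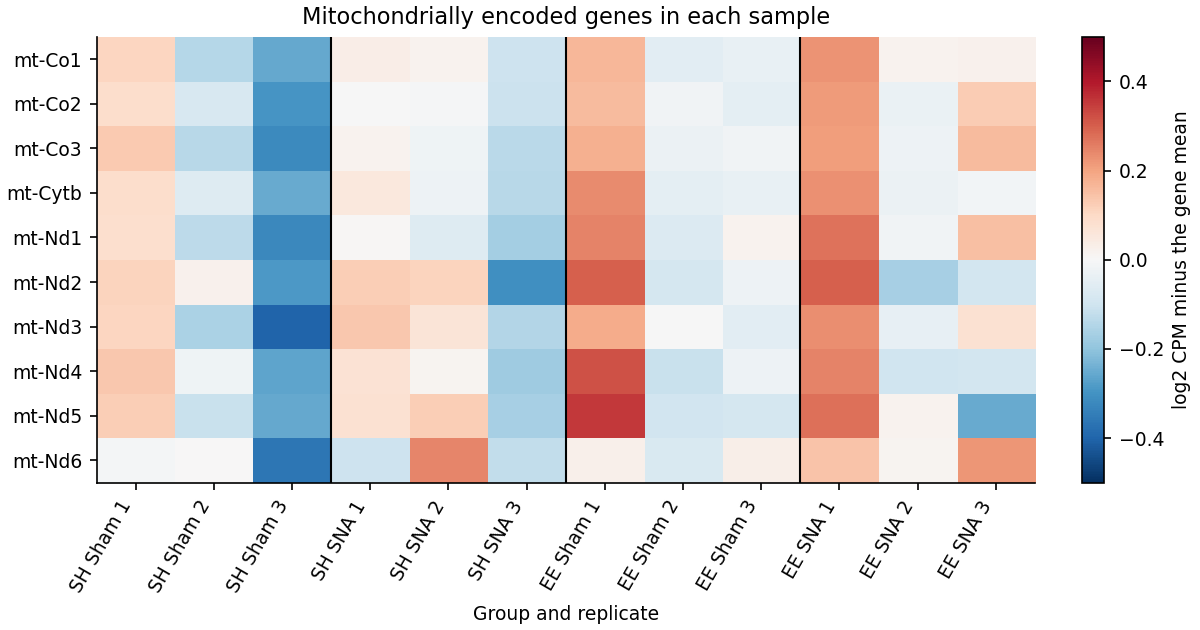
Log2 CPM minus the gene's mean over 12 samples (colour scale, -0.5 to 0.5) for 10 mitochondrially encoded genes (rows; mt-Atp6, mt-Atp8 and mt-Nd4l are left out for low counts) in each sample (columns). Replicate 1 of each group is the highest by the median over genes, and SH Sham replicate 3 is the lowest at -0.29.

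EE SNA against SH Sham joins both treatments. No member was called, against 6.87% of all genes called higher and 5.63% lower. At the unadjusted threshold 6 members were higher and 0 lower, where 14.7% and 12.6% of all genes were. Uqcrb, a small complex III subunit, was at 86.4, 83.4 and 84.4 CPM in SH Sham and 88.5, 92.8 and 102 in EE SNA (log2 fold change 0.15, edgeR adjusted P = 0.149), without overlap. Atp5l (0.20, adjusted P = 0.119) and the complex IV subunit Cox6c (0.21, adjusted P = 0.160) overlapped between the groups, and without EE SNA replicate 2 Atp5l was called (0.26, adjusted P = 0.0475). Cox6a2 again had few reads, with 10, 23 and 16 in EE SNA (log2 fold change 1.40, adjusted P = 0.0626, called without SH Sham replicate 3 at 2.18, adjusted P = 0.0166), beside skeletal muscle markers at 161 to 251 CPM in EE SNA.

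All 11 mitochondrial genes were again above 0 in EE SNA, with a median of 0.19, while the nuclear median was 0.01 (43 of 81 above 0). Of all genes 50.9% were above 0. mt-Nd1 was at 4376, 3763 and 3299 CPM in SH Sham and 4986, 4071 and 4576 in EE SNA. Its groups overlapped, and the log2 fold change was 0.25 (interval 0.04 to 0.47, edgeR adjusted P = 0.119). mt-Nd6 was at 984, 993 and 772 CPM against 1094, 999 and 1155 (0.24, interval 0.04 to 0.44, adjusted P = 0.115), and these groups did not overlap. Only 1 of the 11 intervals lay inside 1.25-fold, against 70 of the 81 nuclear ones, so the bounds on the mitochondrial genes were wide. Without SH Sham replicate 1, 3 of them passed the adjusted test (mt-Co3, mt-Nd1 and mt-Nd3, up to 0.36 on the log2 scale). Without EE SNA replicate 2, 1 did (mt-Nd1). Of all 16238 genes, 1219 passed in the first of these fits and 2021 in the second. With the replicate number as a block, 7 of the 11 were higher at an unadjusted P under 0.05 (13.7% of all genes were in the same fit) and 0 passed the adjusted test (smallest edgeR adjusted P = 0.0671), although the numbers were not taken to pair these groups, since same-numbered samples did not deviate together over all genes. The mitochondrial median was 0.10 without SH Sham replicate 3, 0.13 without EE SNA replicate 1 and 0.28 without SH Sham replicate 1.

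The medians of the complexes in EE SNA are given as a description, since no test compared them. Of the 15 nuclear complex IV genes tested, 14 were above 0 against SH Sham, with a median of 0.11. These 15 include genes with few reads, among them Cox6a2 and Cox7a1. The median was -0.0080 for the 37 of complex I and -0.07 for the 4 of complex II. It was 0.03 for the 8 of complex III and -0.0037 for the 17 of complex V. In complexes I, II, III and V, 17, 1, 4 and 7 genes were above 0, where 50.9% of all genes were. Cox4i1 was at 247, 299 and 284 CPM in SH Sham and 279, 306 and 329 in EE SNA, and its fold was 1.10 (interval 0.975 to 1.24). None of the 15 was called.

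EE SNA against EE Sham compares axotomy with sham in enriched mice, and a batch of EE Sham cannot be told apart from axotomy here. No member was called (2.51% of all genes were higher and 2.33% lower), and 2 members were higher and 0 lower at the unadjusted threshold (10.3% and 10.4% of all genes). These were Atp5d, at 126, 147 and 125 CPM in EE Sham and 156, 153 and 163 in EE SNA (log2 fold change 0.23, edgeR adjusted P = 0.105), and Ndufa4l2 (0.68, adjusted P = 0.227). Without EE Sham replicate 2 Atp5d was called (0.31, adjusted P = 0.0200). For both genes EE Sham had the lowest mean of the 4 groups, and these comparisons share samples. The nuclear median was 0.02 and the mitochondrial 0.05.

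EE SNA against SH SNA asks what enrichment adds after axotomy. No gene at all was called (0% of 16238), and 5 members were higher and 0 lower at the unadjusted threshold, where 2.16% and 1.94% of all genes were. Uqcrb was at 82.6, 83.0 and 82.6 CPM in SH SNA and 88.5, 92.8 and 102 in EE SNA (log2 fold change 0.19, interval 0.05 to 0.32, edgeR adjusted P = 0.989). Ndufb9 was at 103, 104 and 104 CPM against 108, 113 and 124 (0.15, adjusted P = 0.989). Ndufa5, mt-Nd1 and mt-Atp6 were the others, the last on 5 to 18 reads per sample. The nuclear median was 0.05 (61 of 81 above 0) and the mitochondrial 0.11 (11 of 11), where 50.9% of all genes were above 0.

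The interaction, the effect of axotomy in enriched mice minus that in standard housing, was called for 0 members and for 0% of all genes. A batch of EE Sham cannot be told apart from it. At the unadjusted threshold 2 members were higher, Atp5d (0.33, interval 0.08 to 0.57) and Ndufa4l2 (0.89, interval 0.13 to 1.65), and 0 were lower, where 1.35% and 1.25% of all genes were. For the nuclear members the median was 0.06 (64 of 81 above 0, against 50.4% of all genes). But it was -0.0077 without EE Sham replicate 1, the library with the lowest nuclear share. Without EE Sham replicate 2, the library with the highest, it was 0.11.

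Several regulators of mitochondrial genes changed after axotomy. Of 16 coactivators and transcription factors listed, 15 were tested, and in SH SNA 1 rose and 3 fell, where 6.06% of all genes rose and 5.17% fell. No test compared this list with the subunits. Esrrg, which encodes estrogen-related receptor gamma, an activator of oxidative metabolism genes, was at 43.5, 43.8 and 38.5 CPM in SH Sham and 24.0, 20.6 and 24.9 in SH SNA. It fell by 0.85 on the log2 scale (SE 0.0916, edgeR adjusted P = 9.6e-05). Esrrb fell from 4.87, 4.95 and 3.81 to 2.68, 3.13 and 2.94 CPM (log2 fold change -0.64, adjusted P = 0.0358). Esrra, the most abundant of the 3 receptors by FPKM, fell from 38.7, 40.7 and 42.2 to 32.0, 34.6 and 34.1 CPM (-0.27, adjusted P = 0.0291). Creb1, whose protein binds cyclic AMP response elements, rose from 52.1, 50.8 and 46.3 to 70.4, 60.1 and 55.7 CPM (0.32, adjusted P = 0.0313). The groups overlapped for none of the 4, without a share over all genes to set beside this. Esrrg was called in all 16 alternative settings, Esrra in 12, Creb1 in 10 and Esrrb in 6. When each of the 6 samples was left out in turn, Esrrg kept its call every time, Esrra and Creb1 in 2 of 6 and Esrrb in 1 of 6 (edgeR adjusted P of up to 0.132). The call of Esrra was lost without SH Sham replicate 2 or 3 or SH SNA replicate 1 or 3, that of Creb1 without any SH Sham sample or SH SNA replicate 1, and that of Esrrb without any sample except SH Sham replicate 3.

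In EE SNA against SH Sham the same 4 genes were called in the same direction, with Esrrg at -0.92 (adjusted P = 8.1e-05), Esrrb at -0.95, Esrra at -0.25 and Creb1 at 0.25, and Ppargc1a was called as well. Both comparisons use the SH Sham samples. Of all genes, 6.87% rose and 5.63% fell in EE SNA against SH Sham. Ppargc1a encodes PGC-1 alpha, the main coactivator of mitochondrial biogenesis, and was at 29.9, 29.6 and 29.5 CPM in SH Sham, 27.3, 27.7 and 22.4 in SH SNA, and 24.8, 24.9 and 22.9 in EE SNA. The fall was -0.29 in EE SNA (edgeR adjusted P = 0.0218), and the value was -0.20 in SH SNA (adjusted P = 0.199). Against EE Sham, Esrrg (-0.81, edgeR adjusted P = 0.00428) and the low Ppargc1b (-1.04, adjusted P = 0.0308) fell in EE SNA. There 2.33% of all genes fell and 2.51% rose. Tfam, which encodes the factor that packages and transcribes mitochondrial DNA, was between 23.3 and 28.0 CPM in all samples and was not called (-0.15 in SH SNA, adjusted P = 0.311). Of these calls in EE SNA, those of Esrrg stood in all 16 settings of both comparisons, while the others stood in 8 to 13 (edgeR adjusted P of up to 0.171). With single samples left out, Ppargc1b kept its call in 0 of 6, Creb1 in 1 (without EE SNA replicate 3), Esrra in 2 (without SH Sham replicate 1 or EE SNA replicate 3), Ppargc1a in 2 (without EE SNA replicate 2 or 3) and Esrrb in 3 (without SH Sham replicate 3 or EE SNA replicate 2 or 3). No regulator was called for housing alone or for the interaction.

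**Figure D5:**
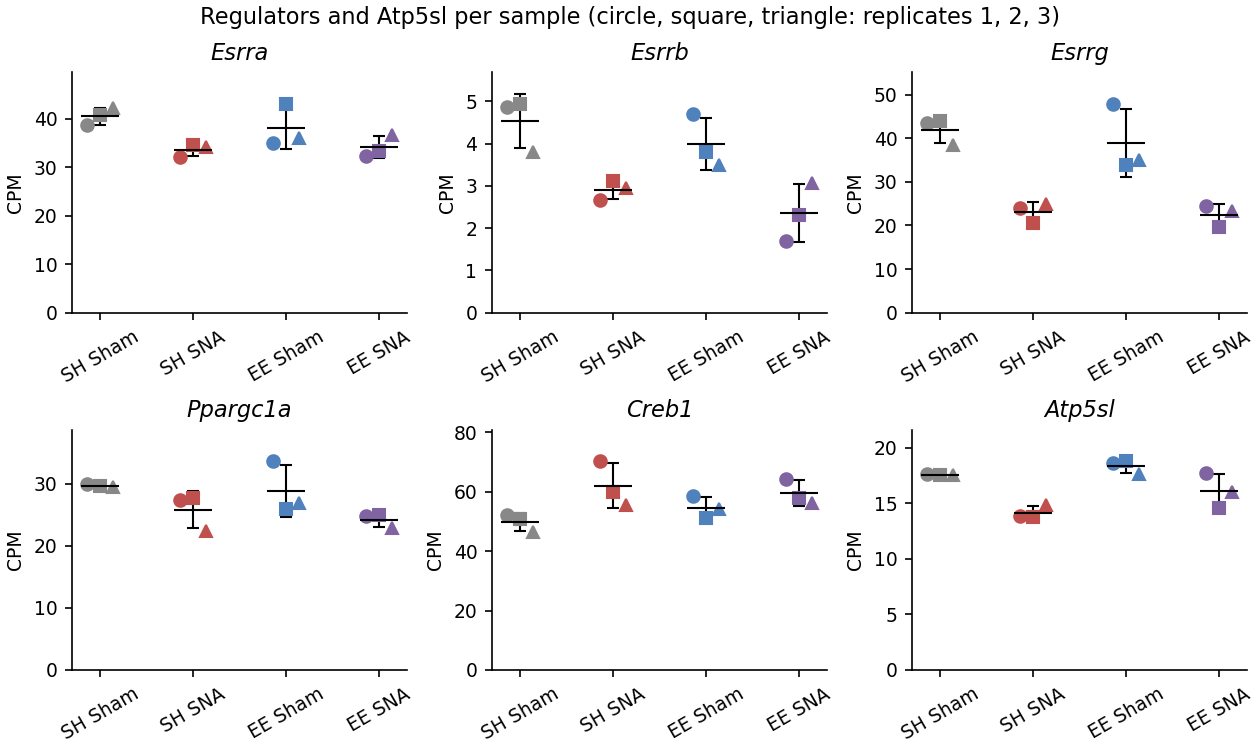
CPM (y axes, from 0) of 5 regulator genes and Atp5sl in each sample by group; circles, squares and triangles are replicates 1, 2 and 3, and bars are mean ± SD (n = 3). Esrrg lies at 19.6 to 24.9 CPM in the 6 axotomy samples and at 33.8 to 47.9 in the 6 sham samples.

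Markers of cell types moved after axotomy too, and their part in these values was not tested. Against SH Sham, 6.06% of all genes rose and 5.17% fell in SH SNA, and 6.87% rose and 5.63% fell in EE SNA. Of 18 sensory neuron markers, 3 fell in SH SNA and 6 in EE SNA against SH Sham, and their summed level was 24882 to 26298 CPM in SH Sham, 22338 to 23811 in SH SNA and 22060 to 23203 in EE SNA. Of 11 macrophage markers tested, 3 rose in SH SNA and 4 in EE SNA, with sums of 92.0 to 97.6, 105 to 144 and 109 to 153 CPM. Of 8 satellite glia markers, 2 rose in SH SNA and 1 in EE SNA (3006 to 3265 CPM in SH Sham, 3175 to 3577 and 3151 to 3346). In each comparison 3 of these 8 lay below 0, and in EE SNA 1 was lower at the unadjusted threshold. Of 8 myelinating Schwann cell markers 0 and 3 rose (6877 to 8372, 7322 to 10849 and 8861 to 11681 CPM), and of 7 neutrophil markers 0 and 1 (70.2 to 186, 118 to 310 and 151 to 726 CPM). Of 4 red blood cell markers 2 and 3 rose (115 to 185, 191 to 521 and 177 to 606 CPM). Of 10 pericyte and smooth muscle markers 0 and 5 rose (332 to 367, 366 to 405 and 429 to 449 CPM), and of 5 adipocyte markers tested Cidea fell in SH SNA, while Adipoq and Ucp1 rose in EE SNA (11.6 to 22.1, 13.9 to 31.5 and 20.5 to 62.7 CPM). Of the 13 skeletal muscle markers none was called in EE SNA, with 5 at the unadjusted threshold.

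Few genes of the other mitochondrial lists were called, and no test compared these lists with the subunits or with all genes. Of 45 listed assembly factors 37 were tested, and the same 2 fell in both axotomy groups against SH Sham, which the comparisons share (2 of 37, where 5.17% of all genes fell in SH SNA and 5.63% in EE SNA). Atpaf1, which helps to assemble the catalytic head of ATP synthase, was at 67.8, 64.3 and 60.9 CPM in SH Sham, 56.4, 52.1 and 46.5 in SH SNA and 58.4, 51.4 and 49.2 in EE SNA (-0.31, edgeR adjusted P = 0.0199, and -0.29, adjusted P = 0.0280). Coa5, a complex IV assembly gene, was at 135, 132 and 133 CPM in SH Sham, 121, 116 and 116 in SH SNA and 117, 118 and 111 in EE SNA (-0.18, adjusted P = 0.0390, and -0.21, adjusted P = 0.0327). Of 75 mitochondrial ribosomal protein genes tested, 0 were called in SH SNA, and in EE SNA against SH Sham Mrpl41 rose (0.21, adjusted P = 0.0495) and Mrpl45 fell (-0.24, adjusted P = 0.0390). Of all genes, 6.06% rose and 5.17% fell in SH SNA, and 6.87% rose and 5.63% fell in EE SNA. The median of the 75 ribosomal protein genes was -0.08 in SH SNA. Of these genes 56 were below 0 and 19 above, where 51.0% of all genes were above 0. With single samples left out, Coa5 (in both comparisons) and Mrpl45 kept their calls in 0 of 6 and Mrpl41 in 1 of 6 (without SH Sham replicate 1). Atpaf1 lost its call without SH Sham replicate 1 or 2 or SH SNA replicate 3 in SH SNA, and without SH Sham replicate 1 or 2 or EE SNA replicate 2 or 3 in EE SNA (edgeR adjusted P of these genes up to 0.156).

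Of 18 tricarboxylic acid cycle genes, Idh2, which encodes mitochondrial isocitrate dehydrogenase, rose in EE SNA against SH Sham (15.4, 18.1 and 14.8 CPM against 18.8, 20.5 and 24.9, log2 fold change 0.41, edgeR adjusted P = 0.0384), and 0 were called in the other comparisons. That is 1 of 18, where 6.87% of all genes rose in EE SNA against SH Sham. Of 14 electron carriers and subunits with other names that were tested, Etfa, an electron transfer flavoprotein gene, fell in EE SNA against SH Sham (90.1, 82.0 and 87.8 CPM against 75.6, 73.1 and 77.3, log2 fold change -0.21, adjusted P = 0.0472). That is 1 of 14, where 5.63% of all genes fell. With single samples left out, Etfa kept its call in 0 of 6 (edgeR adjusted P of up to 0.126), and Idh2 lost it without SH Sham replicate 1 or 3 or EE SNA replicate 3 (up to 0.130). Of 29 genes for maintenance and expression of mitochondrial DNA that were tested, 0 were called in any comparison, where 6.06% of all genes rose and 5.17% fell in SH SNA. Of 9 mitochondrial rRNA and tRNA genes tested, which a poly(A) selection captures poorly, mt-Tp (0.42, adjusted P = 0.0120) and mt-Ts1 (0.28, adjusted P = 0.0418) rose in EE SNA against SH Sham (2 of 9, where 6.87% of all genes rose).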

How the data were processed

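Counts per gene and FPKM values of 12 DRG samples were used. As stated in the methods and in the labels, the authors prepared poly(A)-selected libraries, aligned paired-end reads to mm10 with TopHat2 2.0.12 and Bowtie2 2.2.3 and counted them with HTSeq (0.6.0 per the labels), giving the deposited counts of 44345 gene names. The deposited FPKM table holds 1 row for each member. The strand setting of the counting is not given in the sources used here. The 5 HTSeq summary lines were left out of library sizes. Reads outside annotated genes made up 46.7% to 47.6% of the reads HTSeq classified. No other column of per-sample values was present.

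Here edgeR 4.0.16 was run on the counts (TMM, filterByExpr at its defaults of 10 and 15 counts, quasi-likelihood test) over all 16238 genes kept. Each comparison used its own 6 samples, the interaction all 12, and a gene was called at a Benjamini-Hochberg adjusted P under 0.05. Intervals are 95% intervals from the fit. Whether the samples of 2 groups overlapped is a description of single genes, and no share over all genes is given for it. TMM factors were 0.978 to 1.02. The test was checked on simulated data. The labels do not say that samples of a group are separate cohorts, so P values measure the spread between these pools. Replicates differed by 3.86 to 8.51 times the sampling variance, so none was a copy. Deviations of same-numbered samples correlated at 0.331, 0.137 and 0.111 between SH Sham and EE Sham, so these numbers were taken to pair the samples. Differently numbered samples of these groups were at -0.333 to 0.194, so the pairing is uncertain. Fold changes, intervals and medians of this comparison come from the fit without the block, and counts from the fit with the block are given beside them. In the other comparisons same-numbered samples were at -0.235 to 0.236, not all over 0.1. Between EE SNA and SH SNA they were at 0.0573 to 0.126, above the -0.123 to 0.0403 of differently numbered samples. With the replicate number as a block, 0 of 16238 genes were called between these 2 groups. Members and lists were chosen with earlier results of these data known. Genes are named by rule: every mitochondrial and Sdh member, the 3 nuclear members of each complex with the highest mean FPKM, isoform families, members called (up to 5 in each direction), and from other lists up to 3 called genes of largest change, Ppargc1a and Tfam. Other genes were named after their values were seen, among them Esrra and Creb1 and members at the unadjusted threshold. Alternatives were library size scaling, DESeq2, the edgeR likelihood ratio test, 2 other filters, a fit of all 12 samples, the replicate block, limma on log2(FPKM + 1) and log2(FPKM + 0.1), where the number added is the pseudocount, omission of all mt- genes, and omission of each sample. Shared windows of 100 bases and positions come from GENCODE M21 (GRCm38).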

Additional observations from a re-analysis of the deposited data

How the results depend on the processing

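Of 101 counts of called nuclear members under the alternatives, 84 were within 1.5 times the count given above, and of 95 mitochondrial counts 92 were. In SH SNA against SH Sham, where 1 nuclear member was called, 0 were called by DESeq2, by the likelihood ratio test and with the replicate block, and 2 (Cox6a2 and Cox8b) without a filter, while leaving out single samples gave 0 to 1. In EE SNA against SH Sham, where 0 were called, the likelihood ratio test and log2(FPKM + 1) each called 1 (Cox6a2), the fit without a filter called 2 nuclear (Cox6a2 and Cox8b) and 4 mitochondrial members (mt-Co3, mt-Nd1, mt-Nd3 and mt-Nd6), and leaving out samples gave 0 to 1 nuclear and 0 to 3 mitochondrial. In EE SNA against EE Sham 1 was called without a filter (Atp5d) and 0 to 1 without single samples, and for the interaction 1 without a filter (Cox6a2). The cause of these changes was not tested. Over 16238 genes, SH SNA against SH Sham held 1616 calls by DESeq2, 1854 by the likelihood ratio test and 1924 with the replicate block. EE SNA against SH Sham held 2438 by the likelihood ratio test and 1406 by log2(FPKM + 1). Without a filter the counts were 2424 and 2792 in these 2 comparisons, 1672 in EE SNA against EE Sham and 74 for the interaction. Leaving out single samples gave 1207 to 1683, 1168 to 2021 and 361 to 1082 in these comparisons, in the same order. The log2 fold change of Cox6a2 in SH SNA turned to -0.51 without SH SNA replicate 2, within a range of -0.51 to 3.42 over the samples left out. Nuclear medians moved past the replicate spread of 0.0495 only when single samples were left out: -0.061 to 0.043 in EE Sham against SH Sham, -0.027 to 0.069 in EE SNA against EE Sham and -0.0077 to 0.11 for the interaction. All 95 mitochondrial medians moved by less than their replicate spread of 0.141. That spread is larger than each main median except the 0.19 of EE SNA against SH Sham, so this bound cannot show that they were stable. With single samples left out they were -0.05 to 0.17 in SH SNA and 0.04 to 0.22 in EE Sham against SH Sham, 0.10 to 0.28 in EE SNA against SH Sham, -0.02 to 0.12 against EE Sham, 0.03 to 0.15 against SH SNA and -0.12 to 0.07 for the interaction. The sign turned without SH Sham replicate 3 in SH SNA and without EE SNA replicate 1 against EE Sham, and the sign of the interaction differed between the samples left out. Beyond the call of Atp5sl, the replicate block changed no member's call. No alternative was run for mt-Tp and mt-Ts1. Low counts limit Cox6a2, Cox8b, Ndufa4l2 and mt-Atp6, and 3 samples a group limit the rest.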
